A study of Mus musculus with 4 samples.

Results

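The MYC, MAX and MXD network was described here in the mouse glioma-initiating cell line NSCL61 with and without knockdown of Eva1. Its 9 members were taken by gene symbol, or by an older synonym, from the annotation of the array: Myc, Mycn, Mycl (Mycl1 in that annotation), Max, Mxi1, Mxd1, Mxd3, Mxd4 and Mnt. Each had 1 probe, so that the network was read by 9 of the 23473 probes and made up 9 of the 16390 genes with a named probe. All 9 had a value on all 4 arrays and were among the 13765 genes tested.

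NSCL61 was derived from C57BL6 brain at P0, per the labels, by transforming neural stem cells with oncogenic HRas on a p53-deficient background, which control and knockdown cells share. The control group (2 arrays) has sample titles that name NSCL61 alone and was taken as the control hairpin cells of the series title, so that a difference in vector or selection cannot be told apart from the knockdown. The Eva1 shRNA group (2 arrays) carries a short hairpin RNA against Eva1, a cell adhesion gene now named Mpzl2. The protocol entered for all 4 samples states transfection and hygromycin selection, and a separate entry states such selection for the Eva1 shRNA cells by name. The labels do not say how many hairpins were used, or whether replicate arrays came from separate cultures. The p-values reflect the spread between the deposited samples, possibly only a technical one.

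MYC proteins are basic helix-loop-helix leucine zipper factors that bind E-box DNA as dimers with MAX and raise the transcription of genes for growth, ribosome production and cell division. The MXD proteins, MXI1 and MNT compete for the same partner, and their dimers with MAX recruit the SIN3 corepressors to the same sequences. In neural progenitors Myc and Mycn are known for sustaining proliferation, and members of the MXD group are classically linked to cell cycle exit, with Mxd3 an exception that is known from S phase cells.

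The promoters of Mxi1 and Mxd3 are shown because these members had the largest changes, and the stretches of Max, Mnt and Mxd4 because they hold CACGTG, the E-box that MYC and MAX bind. The sequences are RefSeq promoters of build GRCm38.p6, where 8 of the 9 members matched and Myc had none, so Myc was not scanned. Capitals mark ACGTG (on either strand) and the E2F-type motifs TTCCCGC or, in its other form, TTGGCGC in the 250 bases before each start, and CACGTG in the 30-base stretches.
Mxi1, first of 3 starts, chr19:53310256-53310505, plus strand: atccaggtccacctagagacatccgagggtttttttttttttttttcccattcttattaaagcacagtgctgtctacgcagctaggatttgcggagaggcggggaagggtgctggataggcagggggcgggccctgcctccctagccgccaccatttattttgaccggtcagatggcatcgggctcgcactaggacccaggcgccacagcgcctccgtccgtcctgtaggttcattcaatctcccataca
Mxi1, middle of 3 starts, chr19:53329163-53329412, plus strand: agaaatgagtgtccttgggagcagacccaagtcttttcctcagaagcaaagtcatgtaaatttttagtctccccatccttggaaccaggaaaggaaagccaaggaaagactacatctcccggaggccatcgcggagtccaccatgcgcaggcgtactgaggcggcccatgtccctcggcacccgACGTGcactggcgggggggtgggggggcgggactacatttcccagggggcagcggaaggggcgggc
Mxd3, chr13:55329732-55329981, minus strand: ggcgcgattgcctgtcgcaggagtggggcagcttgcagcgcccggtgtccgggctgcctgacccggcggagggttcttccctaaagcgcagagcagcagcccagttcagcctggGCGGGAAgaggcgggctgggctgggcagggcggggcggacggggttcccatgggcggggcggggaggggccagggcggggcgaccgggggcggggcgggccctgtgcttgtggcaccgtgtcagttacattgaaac
Max, chr12:76962234-76962263, minus strand: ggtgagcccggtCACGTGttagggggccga
Mnt, chr11:74830789-74830818, plus strand: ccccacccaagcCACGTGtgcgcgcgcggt
Mxd4, chr5:34187912-34187941, minus strand: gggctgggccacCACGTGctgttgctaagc
The window of the last Mxi1 start overlaps that of the middle one and is not shown. Over whole promoter windows of 300 bases, both strands, CACGTG lay in 3 of the 8 matched members (Max, Mnt and Mxd4). These held 3 of the 10 member promoters with CACGTG, against 7.15% of all 32851 promoters. ACGTG is contained in CACGTG and also forms the core of hypoxia response elements. It lay in these 3 members and in Mxi1 (the middle and the last start), 5 of the 10 member promoters, against 19.62% of all promoters. Of the E2F-type motifs, TTCCCGC lay in Mxd3, against 4.60% of promoters, and TTGGCGC in Mycn, against 2.45%. The letters TTTGAA, known from cell cycle promoters, lay in Mycn, against 17.89%. These matches describe letters in a window, the motifs were chosen with the members' changes known, and binding was not measured.

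The comparison asked how Eva1 knockdown changes expression in these cells, whose proliferation Eva1 is said to regulate. In the network, the MXI1 and MNT repressor genes were lower and the repressor gene Mxd3 was higher in the Eva1 shRNA cells, while Myc and Max themselves did not pass the test. Mxi1 was 5.33-fold lower, Mxd3 2.68-fold higher and Mnt 1.52-fold lower. Of the 9 members, 1 rose, 2 fell and 6 did not pass (limma, two-sided, adjusted p under 0.05 over all 13765 genes). Among all genes tested 26.0% passed, 12.5% higher and 13.5% lower, so the members' share is near the background. With each array left out in turn, 1 member rose (Mxd3) and 1 fell (Mxi1) in all 4 fits.

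Intensities below are the deposited values, on a linear scale with each array's median near 25. Log2 levels and log2 changes are after quantile normalization, and a change is Eva1 shRNA minus control. Errors of changes are standard errors of the fit.

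Myc, the founding activator of the network, read 133 and 185 in the controls against 160 and 169 in the Eva1 shRNA cells. The control arrays were the lowest and the highest of the 4, so the groups overlapped and the spread within the controls exceeded the difference between the groups. The log2 change of Myc was -0.10 ± 0.20 with a 95% interval from -0.59 to 0.40 (limma, adjusted p = 0.753).

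Mycn, the paralog prominent in neural progenitors, was dim. Its intensities were 2.19 and 1.99 in control and 1.66 and 1.94 in Eva1 shRNA cells, where the lowest value of an array was 1.19 to 1.44 and the 10% quantile of an array was 2.40 to 2.57. All 4 values lay under the 10% quantile of their array, so the probe gave little signal in either group. Its log2 change was -0.28 ± 0.17 (95% interval -0.71 to 0.16, limma adjusted p = 0.288).

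Mycl, the third family member, was also dim, with 2.64 and 3.85 in control and 4.72 and 6.07 in Eva1 shRNA cells. Both Eva1 shRNA arrays were above both controls. Its log2 change was 0.57 ± 0.23 (95% interval -0.02 to 1.15) and did not pass (limma, adjusted p = 0.132). Probes left blank on some arrays had mean intensities up to 4.14 at their 95th percentile, a range that holds both control values of Mycl. With 16 intensity units added before log2 its change was 0.12.

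Max, the partner that MYC, MXD and MNT proteins share, had intensities of 153 and 116 in control and of 148 and 151 in Eva1 shRNA cells. The Eva1 shRNA arrays lay between the controls. Its log2 change was -0.02 ± 0.18 (95% interval -0.48 to 0.44, limma adjusted p = 0.952).

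**Figure D1:**
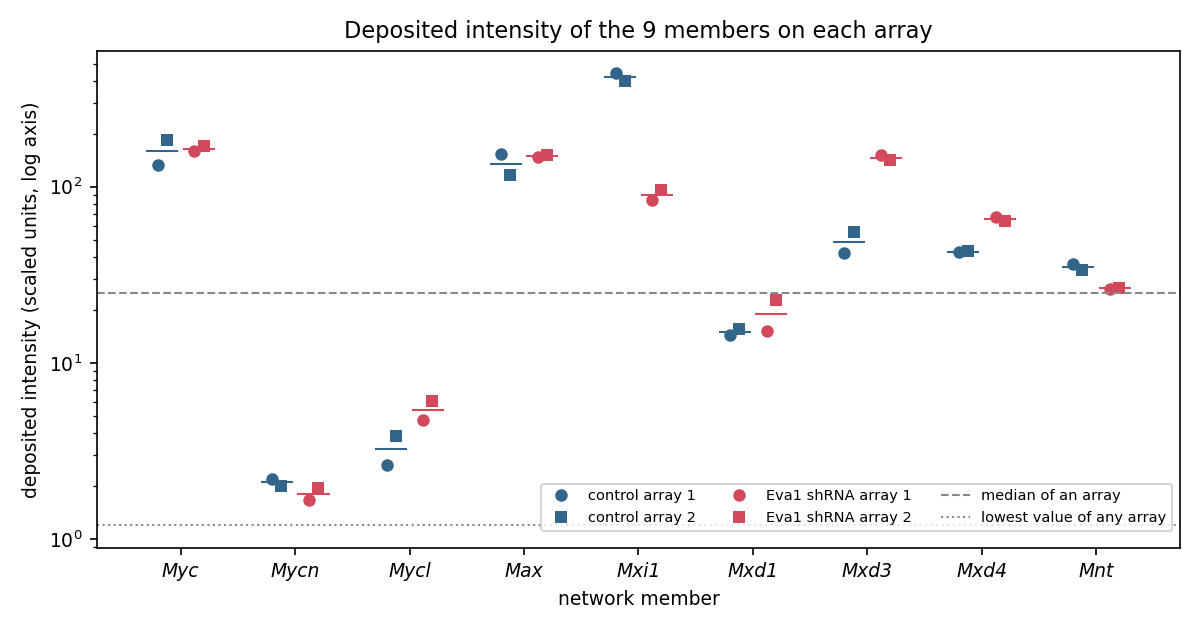
Deposited intensity (log axis, scaled units) of the 9 members on the control arrays (blue) and the Eva1 shRNA arrays (red), with short lines at group means, a dashed line at the array median near 25 and a dotted line at the lowest value of any array. Mxi1 was at 440.0 and 401 in control against 84.2 and 95.8 in Eva1 shRNA cells, Mxd3 was higher on both Eva1 shRNA arrays, and Mycn and Mycl lay far under the median.

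Mxi1, which encodes a MAX partner that recruits SIN3 and is known as a gene induced by low oxygen, was the member with the largest change. Its intensities were 440.0 and 401 in control and 84.2 and 95.8 in Eva1 shRNA cells. Every control value was thus over 4 times every Eva1 shRNA value. The log2 level went from 8.80 ± 0.08 to 6.39 ± 0.18 (SD, n = 2 each). The log2 change was -2.41 ± 0.16 (95% interval -2.81 to -2.01, limma adjusted p = 0.00124), the fall of rank 95 among 13765 genes. Across all 13 alternative settings it lay between -2.54 and -2.21, and the highest adjusted p was 0.0141. Mxi1 has several annotated starts, and which of its transcripts the probe reads is not given in the sources used here.

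Mxd3 encodes the MXD protein known from S phase. Its intensities were 42.0 and 55.0 in control and 151 and 141 in Eva1 shRNA cells, without overlap. The log2 level went from 5.68 ± 0.23 to 7.10 ± 0.03 (SD, n = 2 each), a log2 change of 1.42 ± 0.17 (95% interval 1.00 to 1.85, limma adjusted p = 0.00497). It was the rise of rank 316 among the genes tested. Over the 13 alternatives the change lay between 1.19 and 1.60 with adjusted p-values up to 0.0405.

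Mxd4, a MXD repressor gene linked to differentiation, had intensities of 42.4 and 43.2 in control and of 67.3 and 64.0 in Eva1 shRNA cells. Its replicates were close and the groups did not overlap, yet the log2 change of 0.43 ± 0.13 (95% interval 0.09 to 0.77) did not pass (limma, adjusted p = 0.0695). It passed with the values as deposited (log2 change 0.62, adjusted p = 0.0273), without the dimmest 25% of probes (adjusted p = 0.0297), with 16 units added (adjusted p = 0.0189) and with limma's variance trend (adjusted p = 0.0328).

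Mxd1, the first described MXD repressor, had intensities of 14.3 and 15.5 in control and of 15.1 and 22.7 in Eva1 shRNA cells. One Eva1 shRNA array was within the control range and the other was above it. The log2 change was 0.09 ± 0.25 (95% interval -0.53 to 0.71, limma adjusted p = 0.814). Without Eva1 shRNA array 2, the higher one, it was -0.25.

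Mnt, the broadly expressed repressor that pairs with MAX, had intensities of 36.3 and 33.6 in control and of 26.1 and 26.7 in Eva1 shRNA cells. Both Eva1 shRNA arrays were below both controls, and the log2 change was -0.60 ± 0.15 (95% interval -0.97 to -0.24, limma adjusted p = 0.0357). Its adjusted p was the highest of the 3 that passed. The call was lost with the values as deposited (log2 change -0.40, adjusted p = 0.0853) and with blank cells filled (adjusted p = 0.0578). It was also lost with any single array left out, with adjusted p = 0.113 and 0.063 when control 1 or control 2 was missing and 0.173 and 0.12 when shRNA array 1 or shRNA array 2 was missing. With 16 units added the change was -0.40 and passed.

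**Figure D2:**
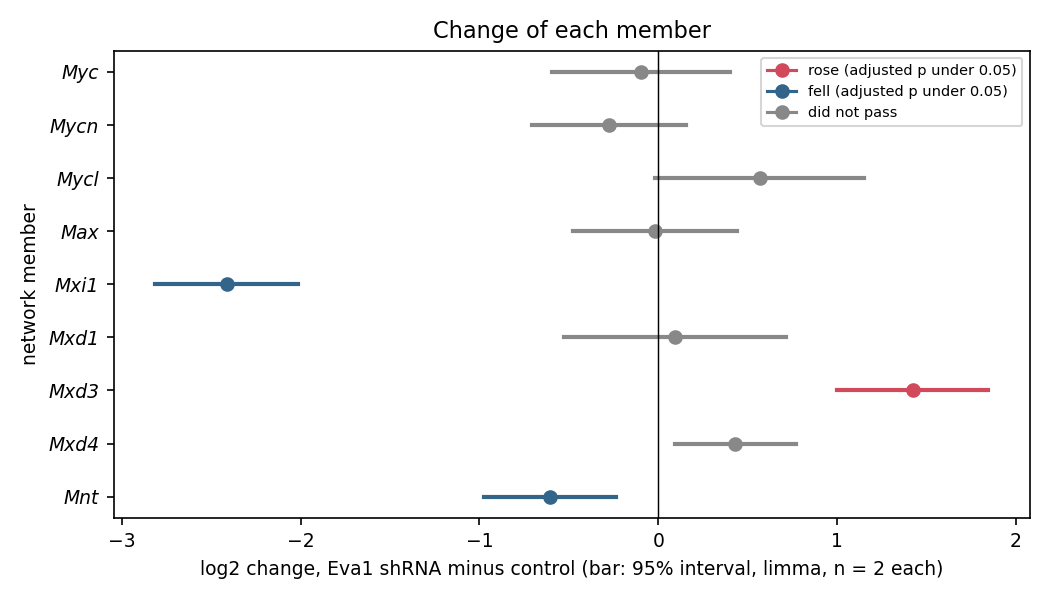
Log2 change (Eva1 shRNA minus control, x axis) of the 9 members with 95% intervals from limma, 2 arrays in each group, coloured by the test at adjusted p under 0.05. Mxi1 (-2.41) and Mnt (-0.60) are on the lower side, Mxd3 (1.42) on the higher side, and the intervals of Myc and Max span 0.

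The groups did not overlap for 6 of the 9 members, with Mycl, Mxd3 and Mxd4 higher and Mycn, Mxi1 and Mnt lower. Among all genes 66.7% did not overlap, 32.6% higher and 34.1% lower. The median absolute log2 change of the members was 0.43, against 0.36 for all genes tested, and the median signed change was -0.02 against -0.01. The values as deposited raised the median change of all genes to 0.18 and turned the small changes of Myc (0.07) and Max (0.17) positive.

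**Figure D3:**
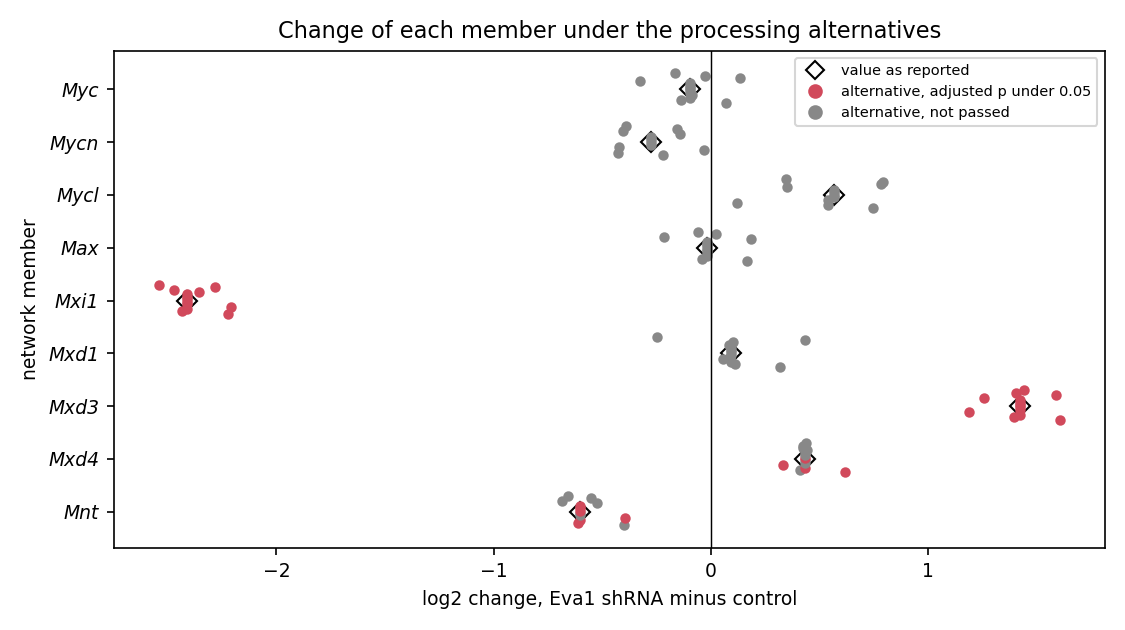
Log2 change (x axis) of each member as reported (open diamonds) and under the processing alternatives (points, red where adjusted p was under 0.05). Mxi1 and Mxd3 stayed past the threshold in all 13, Mnt and Mxd4 lay on either side of it, and Myc, Max and Mxd1 scattered around 0.

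The balance between Myc and its antagonists was followed within each array, as the log2 difference between the Myc probe and each other member, in which scaling between arrays largely cancels. These differences alone show unequal change and not which gene changed. Between groups, each equals the log2 change of Myc (-0.10) less that of the other member. Both changes are given above, so the ratios are no separate result. Relative to the Mxi1 probe, Myc was higher by 2.32 on the log2 scale in the Eva1 shRNA cells, with values of -1.71 and -1.14 in control and of 0.95 and 0.84 in Eva1 shRNA cells. Relative to Mnt it was higher by 0.51, with 1.84 and 2.46 in control against 2.64 and 2.67. In both ratios the Eva1 shRNA arrays were above the controls.

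Against the repressors Mxd3 and Mxd4 the ratio of Myc moved the opposite way. Relative to Mxd3 its log2 ratio was 1.64 and 1.76 in control and 0.09 and 0.27 in Eva1 shRNA cells, a difference of -1.52. Relative to Mxd4 the ratio was 1.63 and 2.10 against 1.26 and 1.42, a difference of -0.53. For Mycl, a MYC family member and not a repressor, the difference was -0.66. The groups did not overlap in these 3 ratios either.

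The ratio of Myc to Max differed by -0.08, that to Mxd1 by -0.19 and that to Mycn by 0.18, all with overlapping groups. An exact two-sided permutation test of 2 against 2 arrays cannot go below p = 0.333, which the 5 ratios without overlap reached (p = 0.533 adjusted over the 8 ratios). None of the ratios can therefore pass by this test.

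**Figure D4:**
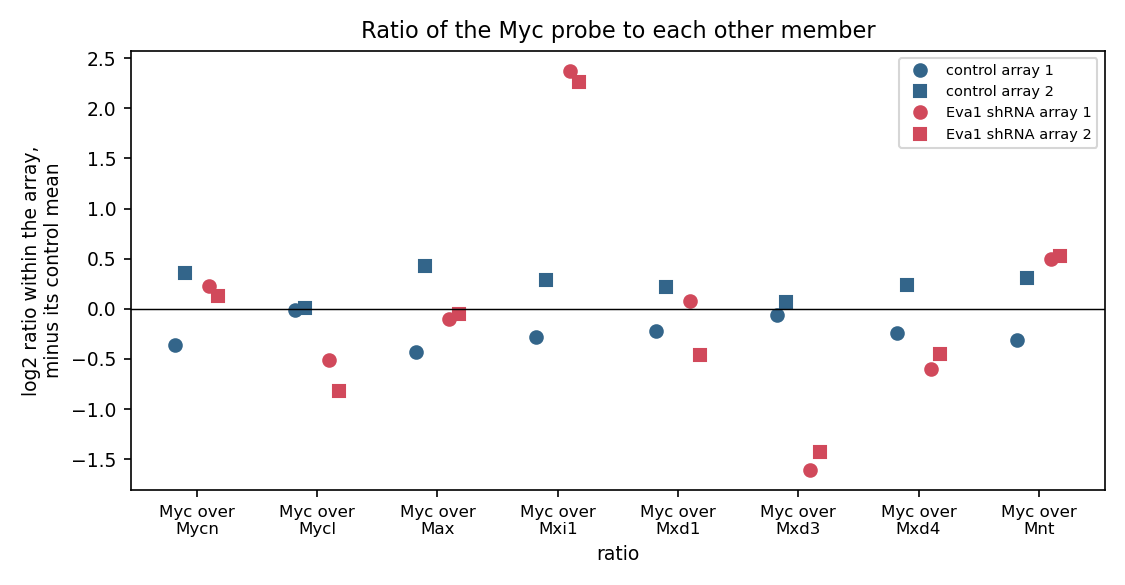
Log2 ratio of the Myc probe to each other member on each array, after subtracting the control mean of that ratio (y axis), for the control arrays (blue) and the Eva1 shRNA arrays (red). The ratio over Mxi1 was 2.32 higher in the Eva1 shRNA cells, that over Mxd3 differed by -1.52, and the ratios over Max and Mycn overlapped.

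The genes closest in pattern were taken as those with the smallest Euclidean distance between centred log2 levels over the 4 arrays. For Mxi1 these were Tro (distance 0.05) and Fblim1 (0.07), with log2 changes of -2.37 and -2.47. For Mxd3 they were Cdca3 (0.05), which encodes a trigger of mitotic entry, and the mitotic kinesin gene Kifc1 (0.08), with changes of 1.46 and 1.37. For Mnt they were the vesicle tethering gene Vps53 (0.01) and the mitochondrial channel gene Vdac2 (0.02), with changes of -0.60 and -0.59. With 4 arrays such likeness is mostly that of the change itself.

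Of 4 further genes of the wider network, Mlx, its glucose-responsive partners Mlxip and Mlxipl, and the MAX partner Mga, 1 fell and 3 did not pass. Among all genes 13.5% fell and 26.0% passed in either direction. Mlx, the MAX-like partner that also binds MXD1, MXD4 and MNT, had intensities of 412 and 337 in control and of 275 and 258 in Eva1 shRNA cells, a log2 change of -0.65 ± 0.16 (limma, adjusted p = 0.0348). Its call was lost with the values as deposited (adjusted p = 0.0806), with blank cells filled (0.0585), without control 1 (0.108) and with shRNA array 1 (0.141) or shRNA array 2 (0.148) missing. Mga (-0.21), Mlxipl (-0.21) and Mlxip (0.06) did not pass, and Mlxipl (0.01) turned positive with the values as deposited. Among other E-box binding zipper factors 0 of 7 tested genes passed in limma's test, against 26.0% of all genes. Of the 7, 2 had an unadjusted p under 0.05, Srebf2 (0.48) and Tfap4 (0.45). Both passed with the values as deposited, without the dimmest probes, with 16 units added and with the variance trend.

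Of 7 tested corepressor genes, 1 rose and 1 fell, each 14.3%, near the 12.5% and 13.5% of all genes. Sin3b, a SIN3 scaffold that binds the MXD repressors directly, had intensities of 17109 and 15906 in control and of 7136 and 8228 in Eva1 shRNA cells. It was 2.54-fold lower without overlap (log2 change -1.34 ± 0.16, limma adjusted p = 0.0052). Its only probe lay at percentile 99.6 of level among the genes tested, and whether that probe reads Sin3b alone was not tested. Sin3a, the paralog of Sin3b, had a log2 change of -0.31 and Ncor1 of -0.33, and neither passed. Both did with 16 units added (limma, adjusted p = 0.0371 and 0.0314), where 3 corepressor genes fell. In that setting 2469 of all genes fell, in place of 1856. Rbbp4, a histone-binding subunit, was the gene that rose (0.80), and its call was lost without control array 2 (adjusted p = 0.0548), Eva1 shRNA array 1 (0.0979) or Eva1 shRNA array 2 (0.0676).

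Of 13 tested coactivator genes 2 (15.4%) rose and 11 did not pass, near the 12.5% of all genes that rose. The helicase gene Ruvbl1 rose by 0.83 and the actin-related subunit gene Actl6a by 0.86, while Wdr5 (0.47) and Ruvbl2 (0.50) did not pass. Both kept their calls with control 2 missing, and Ruvbl1 lost its call with control 1 missing. Neither passed with either Eva1 shRNA array missing, where fewer of all genes rose too. With the values as deposited 5 rose, where 2714 of all genes rose in place of 1720.

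Of 14 tested genes that control the stability of the MYC protein, 3 (21.4%) rose, 1 (7.14%) fell and 10 did not pass, against 12.5% and 13.5% of all genes. The number that fell was 4 with 16 units added, 3 with the variance trend and 2 without the dimmest probes. Among all genes 2469, 2510 and 2284 (of 10679 tested) fell in these settings in that order, in place of 1856. The gene that fell lost its call with control 1 or either Eva1 shRNA array missing. Fewer rose with shRNA array 2 missing. Fewer of all genes rose and fell in each fit on 3 arrays too. Cip2a, an inhibitor of the phosphatase that destabilizes MYC, had intensities of 37.3 and 48.1 in control and of 156 and 190.1 in Eva1 shRNA cells and rose 3.60-fold. Skp2, a ubiquitin ligase subunit that binds MYC, had 188 and 215 against 668 and 625 and rose 2.87-fold. The mitotic kinase gene Aurka rose by 1.14 on the log2 scale.

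Fbxw7, the ligase subunit that marks phosphorylated MYC for degradation, had intensities of 30.8 and 31.5 in control and of 21.8 and 17.8 in Eva1 shRNA cells. It fell by 0.86 on the log2 scale (limma, adjusted p = 0.0141), and by 0.52 with 16 units added. The call of Fbxw7 was lost without control array 1 (adjusted p = 0.0569), Eva1 shRNA array 1 (0.0549) or Eva1 shRNA array 2 (0.0844), and that of Aurka without Eva1 shRNA array 2 (0.0556). Cip2a and Skp2 passed under all 13 alternatives. Transcript levels do not measure the MYC protein or its stability.

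Known MYC-activated genes of the nucleolus and translation were more often higher than lower. Of 22 tested, 11 (50.0%) rose, 11 did not pass and none fell (limma; none fell at an unadjusted p under 0.05 either), where 12.5% of all genes rose. The median log2 change was 0.59, against -0.01 for all genes. The lists of MYC targets here and below were chosen with earlier results of these data known, so their shares are described and not tested. Most genes of this list, and of each MYC target list below, were also brighter than the median gene tested. The shares over all genes, such as the 12.5%, cover dim genes as well. Dkc1, the pseudouridine synthase of ribosomal RNA, had intensities of 334 and 311 in control and of 987 and 833 in Eva1 shRNA cells and rose by 1.35. Nop2 rose by 1.20, Bop1 by 1.08 and Wdr12 by 1.02, all factors of large ribosomal subunit assembly.

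Nucleolin (Ncl, 0.69) also rose, and nucleophosmin (Npm1, 0.42) did not pass, although it did with the values as deposited (0.67). Both were picked with their values known. The genes that rose numbered 7 and 9 with control 1 or control 2 missing, and 3 with either Eva1 shRNA array missing. Single calls were lost for Bop1 (adjusted p = 0.0502) and Nop2 (0.0504) without Eva1 shRNA array 2, for Wdr12 (0.0546) without Eva1 shRNA array 1, and for Ncl whichever of the 4 was missing (0.0534 to 0.118).

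Of 24 tested MYC-activated genes of metabolism, 8 (33.3%) rose, 2 (8.33%) fell and 14 did not pass, against 12.5% and 13.5% of all genes, with a median log2 change of 0.21. Srm, the spermidine synthase gene, had intensities of 565 and 450.3 in control and of 1344 and 1364 in Eva1 shRNA cells and rose by 1.27. The nucleotide synthesis gene Impdh2 rose by 1.03 and the transferrin receptor gene Tfrc by 1.01. The members that fell were the glucose transporter gene Slc2a1 (-1.56) and the lactate dehydrogenase gene Ldha (-0.79). In the same list the glycolytic enzyme genes Hk2 (-0.61), Pkm (-0.26) and Eno1 (-0.16) did not pass. A link of these genes or of Mxi1 to oxygen was not tested.

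Odc1, a classic MYC target that makes polyamines, had a log2 change of 0.18 and did not pass. Ldha, Odc1, Hk2, Pkm and Eno1 were picked with their values known. The call of Ldha was lost with the values as deposited (adjusted p = 0.131), with median centring (0.0501), with blank cells filled (0.0756) and in each of the 4 fits on 3 arrays (0.0601 to 0.174). Of the metabolism genes fewer rose and fewer fell in each fit with 1 array missing, where fewer of all genes did too. The call of Tfrc was lost without Eva1 shRNA array 2 (adjusted p = 0.0628) and that of Impdh2 without Eva1 shRNA array 1 (0.0735) or 2 (0.0525).

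Of 13 tested MYC-activated genes of the cell cycle, 5 (38.5%, against 12.5% of all genes) rose, 8 did not pass and none fell (limma; none fell at an unadjusted p under 0.05 either). The median log2 change was 0.52. Id2, an inhibitor of differentiation factors, had intensities of 31.8 and 26.4 in control and of 243 and 167 in Eva1 shRNA cells and rose 6.09-fold. The replication helicase genes Mcm5 and Mcm4 rose by 1.46 and 1.29, and the kinase gene Cdk4 by 0.80. Fewer of these genes rose in each fit with 1 array missing, where fewer of all genes rose too. With the values as deposited 8 rose, where 2714 of all genes rose in place of 1720. Calls were lost for Mcm4 without Eva1 shRNA array 1 (adjusted p = 0.0549) and for Cdk4 whichever array was left out (0.0518 to 0.0928).

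Of 18 tested genes known to be repressed by MYC, 6 (33.3%) fell, 4 (22.2%) rose and 8 did not pass, against 13.5% and 12.5% of all genes, with a median log2 change of -0.43. Thbs1, the anti-angiogenic matrix protein gene, had intensities of 272 and 243 in control and of 49.3 and 53.2 in Eva1 shRNA cells and was 5.69-fold lower. Ndrg2 (-2.08) and Ndrg4 (-1.43), of the NDRG family, fell as well, while Ndrg1 of that family (-0.03, limma adjusted p = 0.925) did not pass. The cell cycle inhibitor gene Cdkn1a (-1.16), named after its value was seen, lost its call without control array 2 (adjusted p = 0.0612) or Eva1 shRNA array 1 (0.073). Tgfbr2 (1.43), Col1a2 (0.76) and Gas1 (0.58) rose and were likewise named after their values were seen. With the stress gene Gadd45b (1.88) they made up the 4 of the 18 genes that rose, against 6 that fell. Fewer of these genes rose in each fit with 1 array missing, and fewer fell with control 2 or shRNA array 1 missing. Fewer of all genes rose and fell in those fits too.

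**Figure D5:**
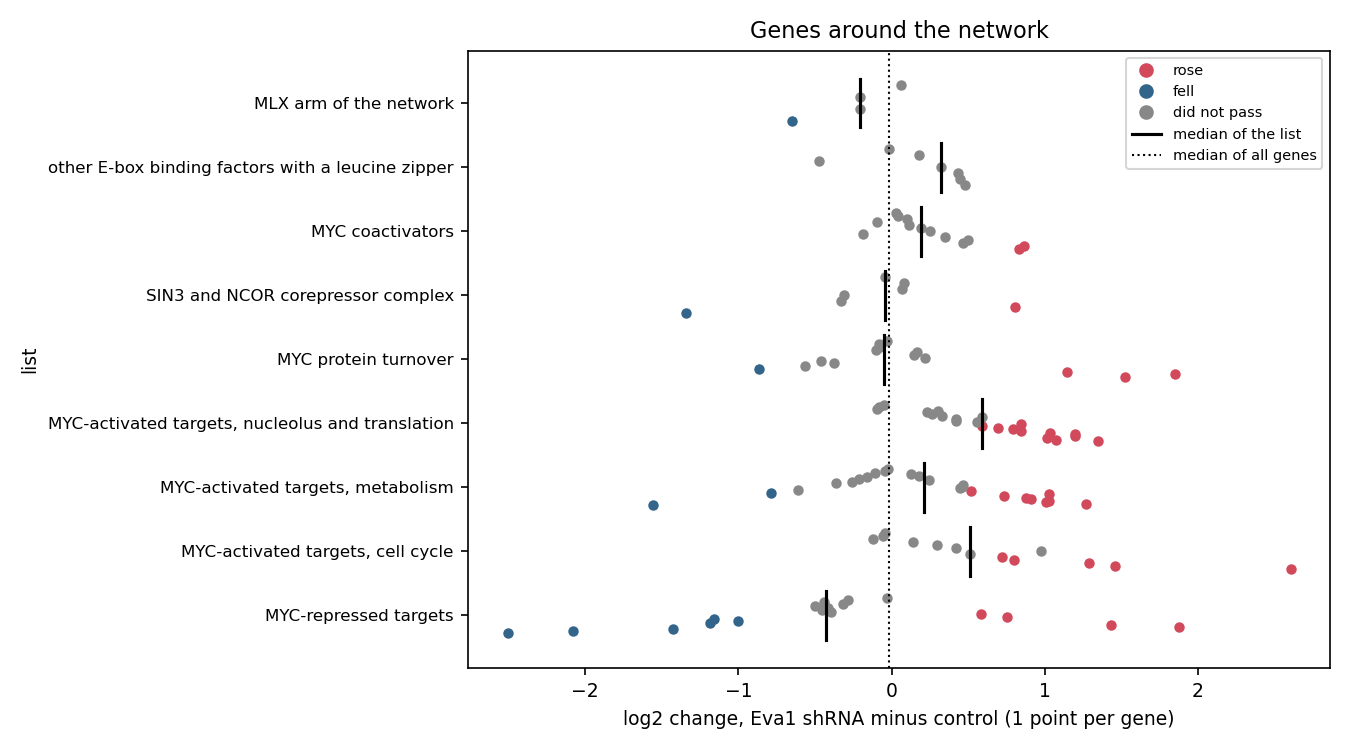
Log2 change (Eva1 shRNA minus control, x axis) of each tested gene in 9 lists around the network, coloured by the test, with a black bar at the median of the list and a dotted line at the median of all genes (-0.01). Median changes were 0.59 for nucleolar and translation targets, 0.52 for cell cycle targets and -0.43 for MYC-repressed targets.

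The labels and the cells were checked on the same arrays. Mpzl2 was 8.72-fold lower in the Eva1 shRNA cells, and replicates correlated at 0.991 (control) and 0.993 (Eva1 shRNA) across probes, against 0.964 to 0.970 between groups. Of 8 neural stem cell markers with a probe, Nes, Vim, Msi1 and Sox9 were above the array median on all 4 arrays and Olig2, Fabp7, Prom1 and Cd44 below it. Of these Cd44, Fabp7 and Sox9 fell, while the summed intensity of the list was 17107 and 16037 in control and 26652 and 20822 in Eva1 shRNA cells. All 5 astrocyte and all 5 endothelial markers were below the array median. Of 5 microglia and blood markers, Csf1r was above the median on all 4 arrays and Cx3cr1, Itgam and Ptprc below it, with Itgam and Ptprc blank on some arrays, and the list summed to 60.8 and 66.7 in control and 89.0 and 71.2 in Eva1 shRNA cells. Of 3 oligodendrocyte markers with a probe, Cnp and Mbp were above the median and Cnp fell, with sums of 152 and 144 against 110.2 and 113. The summed intensity of the 5 fibroblast and pericyte markers was 196 and 165 in control and 571 and 427 in Eva1 shRNA cells, with Acta2 and Pdgfrb higher. Of the 5, Pdgfrb was above the median on all 4 arrays and Col1a1 and Lum below it. For the 5 neuronal markers with a probe the sum was 65.5 and 64.4 in control against 94.0 and 110.5, with Tubb3 higher. Tubb3 was above the median on all 4 arrays and Dcx, Map2 and Syp below it, with Syp blank on some arrays. The part of these cell types in the members' changes was not tested. In bulk RNA a change in the share of cells and a change in RNA per cell cannot be told apart.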

How the data were processed

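Per the labels, total RNA was amplified, coupled to Cy5 and read as 1 colour on a TORAY 3D-Gene chip. The deposited intensity values are linear, with each array's median near 25 as the values show. Scanner, background correction, scaling and the rule for blank cells are not stated in the labels or files, and the number of arrays limits the precision. Blank cells made up 12.0% and 10.8% of the control arrays and 6.95% and 8.35% of the Eva1 shRNA arrays.

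The 19199 probes with a value on all 4 arrays were used on the log2 scale. On these probes the array medians were 4.99 and 5.04 in control and 5.27 and 5.19 in Eva1 shRNA cells. They differed by up to 0.274, above a limit of 0.1, so the arrays were quantile normalized. The blank cells and these medians thus both differed between the groups. A gene was represented by its brightest probe, and 13765 genes were compared with limma 3.58.1 in R 4.3.3 (lmFit and eBayes, two-sided, Benjamini-Hochberg adjustment over all genes, threshold 0.05). Symbols were updated through RefSeq (GRCm38.p6): 16631 probes had 1 symbol, 0 had several and 6842 had none.

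Members and lists were chosen with earlier results of these data known. Named by rule were the 9 members, Mpzl2, the 4 genes of each list with the smallest p, and the 2 genes nearest each member that passed. Other list genes in the text, such as Ncl, Ldha and Ndrg1, were picked with their values known. Alternatives changed the scaling, blank cells, dim probes, added units, variance model, probe choice, replicate block and arrays. The fit was tested on simulated data. Figures used matplotlib 3.10.9.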

Additional observations from a re-analysis of the deposited data

How the results depend on the processing

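Mxi1 and Mxd3 kept their direction and their call under all 13 alternatives. Of 115 values of the members under an alternative, 98 kept direction and side of the threshold, 7 lost the call (all Mnt), 4 gained one (all Mxd4) and 6 changed sign. The sign changes were those of Myc (0.071) and Max (0.17) with the values as deposited, and, with 1 array missing, of Myc (range -0.33 to 0.13), Max (-0.22 to 0.18) and Mxd1 (-0.25 to 0.43). None of these had passed. Outside the members, Mlxipl (0.0083) turned with the values as deposited and Mlxip with control 1 missing (range -0.21 to 0.33).

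The members that rose numbered 2 in place of 1 with the values as deposited, with 16 units added, with eBayes trend and with the dimmest 25% of probes removed. The members that fell numbered 1 in place of 2 with the values as deposited, with blank cells filled and with the replicate block, and with each array left out 1 rose and 1 fell (range 1 to 1 for both). Over all genes 1720 were higher and 1856 lower. With the values as deposited 2714 were higher, and 67.7% of calls in place of 48.1%. Over the 122 distinct list genes, 34 rose and 11 fell, and 21 fell with 16 units added and 17 with eBayes trend. With 1 array left out, 510 to 1190 genes were higher and 696 to 1212 lower, and 12 to 25 list genes rose and 6 to 9 fell, with fewer samples in each fit. Where a direction or a call changed otherwise, the cause was not tested.

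The replicate numbers of the titles did not pair the arrays (correlation of same-numbered deviations -0.00926 across probes). With the replicate block 1471 genes were higher and 1631 lower, and 32 list genes rose and 10 fell. Under it Mnt (adjusted p = 0.0631) and Mlx (0.0503) did not pass, and no other call of a member or of a gene named by rule changed. Signal over background limits Mycn, near the lowest values of the arrays, and the control values of Mycl.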
